A study of Mus musculus with 2 samples.

Results

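Alx1, Alx4, Prrx1, Prrx2 and Shox2 are 5 genes of paired-type homeobox transcription factors that are known from facial and limb mesenchyme. They were chosen by name, out of 21938 protein-coding genes of the GENCODE M21 annotation of mm10. Their regions were every DNase-seq peak and hotspot that overlapped the gene body or the 200 kb on either side of it, which gave 455 of 304233 peaks in replicate 1 and 336 of 217980 peaks in replicate 2, and 416 and 304 hotspots. The tissue was embryonic facial prominence of B6NCrl mouse embryos at embryonic day 14.5, males and females together, with no treatment. The single group had 2 biological replicates, separate tissue samples under 1 donor record, so no test between conditions was possible and values are given per replicate. DNase-seq marks accessible DNA by cutting nuclei with DNase I. Peaks are 150 bp regions with the authors' score from 1 to 150, and hotspots are wider regions with a significance value.

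Paired-type homeobox proteins bind short AT-rich DNA motifs, alone or as pairs of proteins on palindromic sites. Alx1 and Alx4 act in the neural crest-derived mesenchyme of the frontonasal region, and loss of either disturbs the midface or skull vault. Prrx1 and Prrx2 are closely related factors of facial and limb mesenchyme that act partly redundantly in the jaw, and Shox2 is needed for the anterior palate, the proximal limb and the sinoatrial node of the heart. DNase accessibility at a gene shows neither its transcript level nor which gene a distal region acts on.

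In the whole lists, replicate 1 had 1.40 times as many peaks as replicate 2, and read depth is not given in the sources used here. The labels name sequencing instruments for replicate 1 alone, so a sequencing batch cannot be told apart from the replicate. A region absent from 1 list is therefore not shown to be closed. Scores carry no stated normalization and were used to rank peaks within a replicate. Divided by 50, they also entered the distance between genes given below. Peaks that overlapped between replicates by 1 bp or more were merged into 177440 shared sites, of which 140271 were distal, that is over 1 kb from every annotated start site. A promoter was counted as accessible when a shared site lay within 500 bp of a start site, which held for 14813 protein-coding genes, 67.5% of all. Promoters of all 8 listed mesenchyme markers, 10 of 10 epithelial and 8 of 8 neuronal markers passed, against 5 of 8 skeletal muscle, 6 of 8 endothelial, 1 of 8 blood and 1 of 8 hepatocyte markers. The tissue is a mixture, so fewer cells with an open region and less opening in each cell cannot be told apart.

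All 5 genes had an accessible promoter in both replicates, against the background of 67.5% of protein-coding genes. The best promoter peak of Alx1 scored 130 in replicate 1 and 86 in replicate 2. That of Prrx1 scored 121 and 84, and that of Alx4 scored 119 and 81. Shox2 reached 102 and 67, and Prrx2 only 58 and 46. Prrx2 was lowest in both replicates, and the other 4 lay above it in each. Among all promoters with a peak, the median best score was 120 in replicate 1 and 110 in replicate 2. Alx1 stood at percentile 65.4 of these promoters in replicate 1 and 29.7 in replicate 2, while Prrx2 stood at 11.3 and 10.6. In replicate 2 all 5 genes were below the median promoter.

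**Figure D1:**
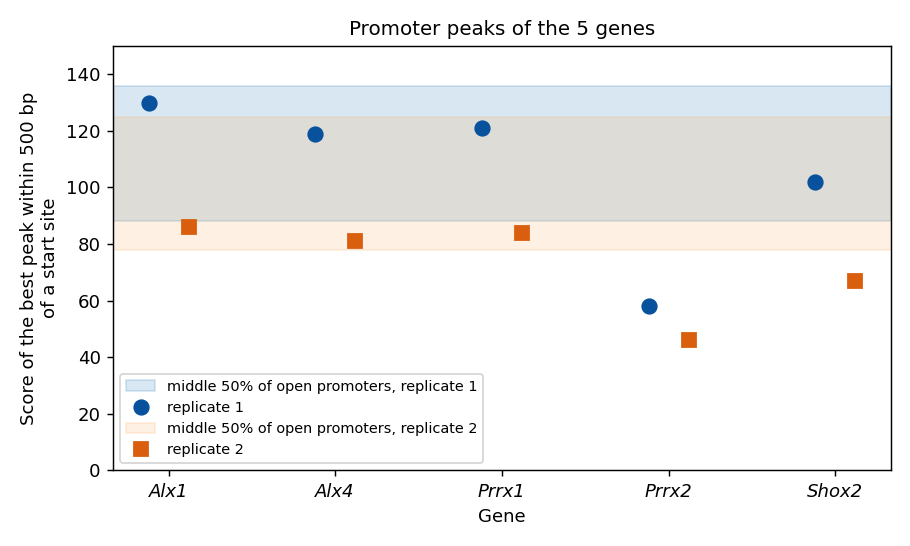
Score of the best peak within 500 bp of a start site (y axis, the authors' score, 1 to 150) for each of the 5 genes (x axis), with circles for replicate 1 and squares for replicate 2. Shaded bands span the middle 50% of promoters with a peak, 88 to 136 in replicate 1 and 78 to 125 in replicate 2, and both Prrx2 points, 58 and 46, lie below them.

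The position of the promoter peaks differed by gene. Prrx1 lies on the minus strand of chromosome 1 at chr1:163245119-163313710, and its peak of scores 121 and 84 adjoined the cluster of 3 start sites in replicate 1 and covered part of it in replicate 2. A further shared region lay 346 bp and 306 bp upstream in replicates 1 and 2, with scores of 84 and 57, and replicate 2 alone had a peak of score 69 on the transcribed side. Alx4, on the plus strand of chromosome 2 at chr2:93642384-93681339, had 2 shared promoter regions that flanked its start sites, with scores of 119 and 81 upstream and of 77 and 73 downstream. The start sites themselves lay between these regions. Sequences of the upstream flanks are printed because the open DNA there lies outside the transcribed exons. They are from the RefSeq GRCm38.p6 genome, 5′ to 3′ on the strand of the gene.
Alx4 upstream promoter flank, chr2:93642076-93642245, plus strand: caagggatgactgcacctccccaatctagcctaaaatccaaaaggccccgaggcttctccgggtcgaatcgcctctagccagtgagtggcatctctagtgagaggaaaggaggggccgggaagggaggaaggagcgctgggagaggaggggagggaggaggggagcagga
Prrx1 upstream promoter flank, chr1:163314016-163314205, minus strand: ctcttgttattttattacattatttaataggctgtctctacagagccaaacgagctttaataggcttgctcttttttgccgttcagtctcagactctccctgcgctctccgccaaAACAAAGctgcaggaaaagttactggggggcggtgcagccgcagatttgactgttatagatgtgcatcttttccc
Capitals mark matches to the motifs searched, here only a SOX-type AACAAAG in the Prrx1 flank.

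Alx1, on the minus strand of chromosome 10 at chr10:102998707-103030215, has 5 annotated start sites over 1438 bp. The shared peak, at chr10:103028676-103028825 in replicate 1 and chr10:103028636-103028785 in replicate 2, covered the most downstream start site. The most upstream start site, at position 103030215, had no peak within 500 bp in either replicate. Prrx2, on the plus strand of chromosome 2 at chr2:30834972-30881251, has 2 start sites 10087 bp apart. Its promoter peaks of 58 and 46 lay 177 bp and 157 bp beyond the second one, at position 30845059. The first start site, at 30834972, had no peak within 500 bp in either replicate, although strong regions lay 1.17 kb upstream and 1.43 kb downstream of it. For both Alx1 and Prrx2 the promoter peaks thus lay near internal annotated start sites and not near the most 5′ one. The shared Alx1 peak was within 500 bp of every Alx1 start site except the most upstream one. Replicate 1 alone had a further Alx1 peak, of score 61, lying 180 bp upstream of the start site at 103029116.

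Shox2, on the minus strand of chromosome 3 at chr3:66971727-66981771, had the most promoter peaks of the 5 genes, 5 in each replicate, of which 4 were shared. Their scores were 102 and 66, 89 and 67, 54 and 46, and 48 and 32 in replicates 1 and 2. The second and the last of these overlapped coding sequence of Shox2, and the nearest Shox2 start site of each was an internal one. Rsrc1, a splicing-related gene, starts at 66981390 on the opposite strand, inside the 5′ part of Shox2, so the peaks at this end cannot be given to 1 of these genes. The 2 regions upstream of the Shox2 start are printed to show this shared stretch.
Shox2 upstream region 1, chr3:66981836-66982005, minus strand: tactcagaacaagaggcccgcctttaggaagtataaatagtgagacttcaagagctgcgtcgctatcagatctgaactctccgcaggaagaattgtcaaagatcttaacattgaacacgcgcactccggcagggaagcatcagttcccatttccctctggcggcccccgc
Shox2 upstream region 2, chr3:66982176-66982345, minus strand: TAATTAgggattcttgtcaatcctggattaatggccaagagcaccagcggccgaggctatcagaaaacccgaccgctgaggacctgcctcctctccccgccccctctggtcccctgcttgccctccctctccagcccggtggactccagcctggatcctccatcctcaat
The capitals mark TAATTA, the core recognised by many homeodomain proteins, at the very start of region 2.

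Around the genes, the number of shared distal sites spanned a wide range. Per 100 kb of gene body plus flanks, Prrx2 had 17.3 shared distal sites (77 sites), Alx4 12.3 (54 sites), Prrx1 11.5 (54 sites), Alx1 5.56 (24 sites) and Shox2 4.15 (17 sites). The median protein-coding gene had 6.59 and the gene at percentile 90 had 11.4. Prrx2 was at percentile 99.7, Alx4 at 93.3 and Prrx1 at 90.4, while Alx1 was at 39.7 and Shox2 at 27.3. These percentiles are descriptions, since windows of neighbouring genes share sites. Prrx2, Alx4 and Prrx1 thus lay above percentile 90 in these windows, and Alx1 and Shox2 below the median. Of these placements only that of Prrx2 held in every alternative tried (percentile 96.1 to 99.9). The lowest value of Alx4 was 77.7 and that of Prrx1 76.4, and the highest of Alx1 was 57.3 and that of Shox2 75.02.

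**Figure D2:**
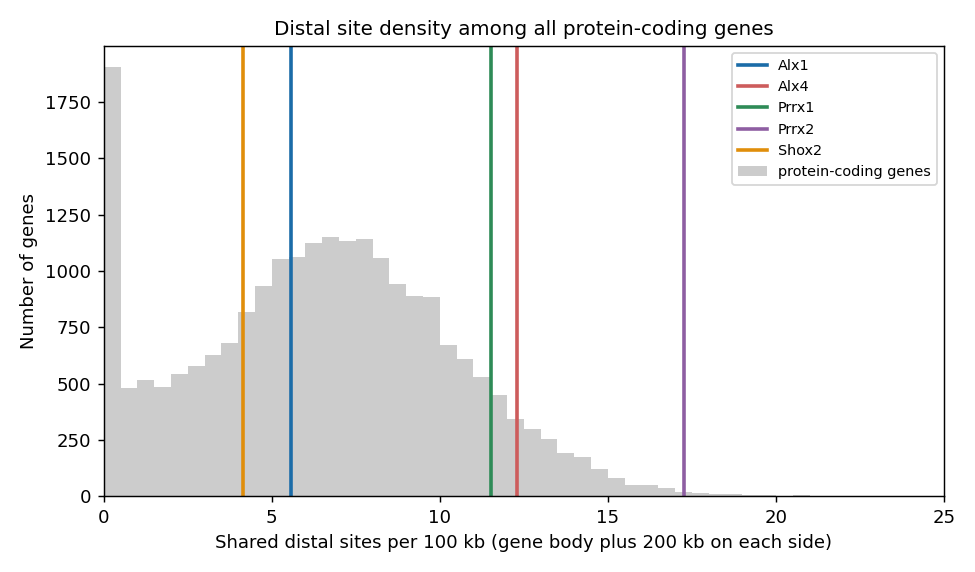
Histogram of the shared distal sites per 100 kb (x axis) over 21938 protein-coding genes (y axis, number of genes), each with its body and 200 kb on both sides; vertical lines mark the 5 genes. Shox2 and Alx1, at 4.15 and 5.56, lie left of the median of 6.59, Prrx1 and Alx4, at 11.5 and 12.3, lie at the upper shoulder, and Prrx2, at 17.3, lies in the far tail.

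Counted in each replicate alone, distal peaks per 100 kb were 25.1 and 16.4 for Alx4 and 24.0 and 19.7 for Prrx2. They were 21.1 and 14.9 for Prrx1, 11.8 and 7.42 for Alx1, and 9.27 and 5.37 for Shox2. Alx4 ranked above Prrx2 in replicate 1 and below it in replicate 2. Among neighbours in the order by shared sites, only Prrx1 and Alx1 had replicate values that did not overlap. The ranges of Alx4 and Prrx1 overlapped, as did those of Prrx2 and Alx4 and of Alx1 and Shox2. Compared within each replicate, Alx4 stood above Prrx1 and Alx1 above Shox2 in both. Only the order of Prrx2 and Alx4 turned between the replicates. No test of these differences was made.

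The ratio of replicate 1 to replicate 2 distal peaks was 1.22 around Prrx2 (107 and 88 peaks), 1.41 around Prrx1 (99 and 70), 1.53 around Alx4 (110 and 72), 1.59 around Alx1 (51 and 32) and 1.73 around Shox2 (38 and 22). The median gene had a ratio of 1.38, and the distal peaks of the whole lists one of 1.48. In every window replicate 1 had more peaks. With replicate 1 limited to its strongest peaks, as many as replicate 2 has, the ratios were 1.14 for Prrx2 and Shox2, 1.16 for Alx1, 1.17 for Prrx1 and 1.25 for Alx4, so the order of the genes by this ratio was not kept. Of the 405 distal peaks of replicate 1 in the 5 windows, 231 overlapped the other replicate, or 57.04% (exact Clopper-Pearson 95% interval 52.1% to 61.9%, counting error only), beside 55.9% of all distal peaks. Of the 284 of replicate 2, 232 did, or 81.7% (76.7% to 86.0%), beside 83.6% of all. The shares in the windows were therefore near the background. Around Prrx2 they were 72.9% and 89.8%, the highest of the 5, and around Alx1 47.1% and 78.1%. Peaks found in both replicates had median scores of 72 and 47.5, and peaks found in 1 only had medians of 43 and 29.

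The 2 strongest distal peaks seen in 1 replicate only were taken for each gene, by the percentile of their score within their list. They fell into a near and a far group by their distance to the nearest peak of the other replicate. Those of Prrx1, both of score 73, lay 10 bp (replicate 1) and 90 bp (replicate 2) from such a peak. Those of Prrx2, both of replicate 2 with scores of 79 and 61, lay 170 bp and 70 bp from one. Those of Alx4, with scores of 77 and 74, lay 50 bp and 3070 bp away. Those of Alx1, with scores of 64 and 63, lay 3610 bp and 3870 bp away, and those of Shox2, both of score 66, lay 6730 bp and 1990 bp away. Around Prrx1 and Prrx2 these peaks therefore lay close to DNA called in the other replicate, and around Alx1 and Shox2 farther from it. The Alx1, Alx4 and Shox2 peaks were all of replicate 1, so they were set against the shorter list of replicate 2. The Prrx2 peaks and 1 Prrx1 peak were set against the longer list of replicate 1. This rests on 2 peaks per gene, and those of Alx1 are close neighbours (chr10:102881956-102882105 and chr10:102882216-102882365). Distal peaks were denser around Prrx1 and Prrx2 than around Alx1 and Shox2 in both replicates. The part of peak density and of list length in these distances was not tested.

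**Figure D3:**
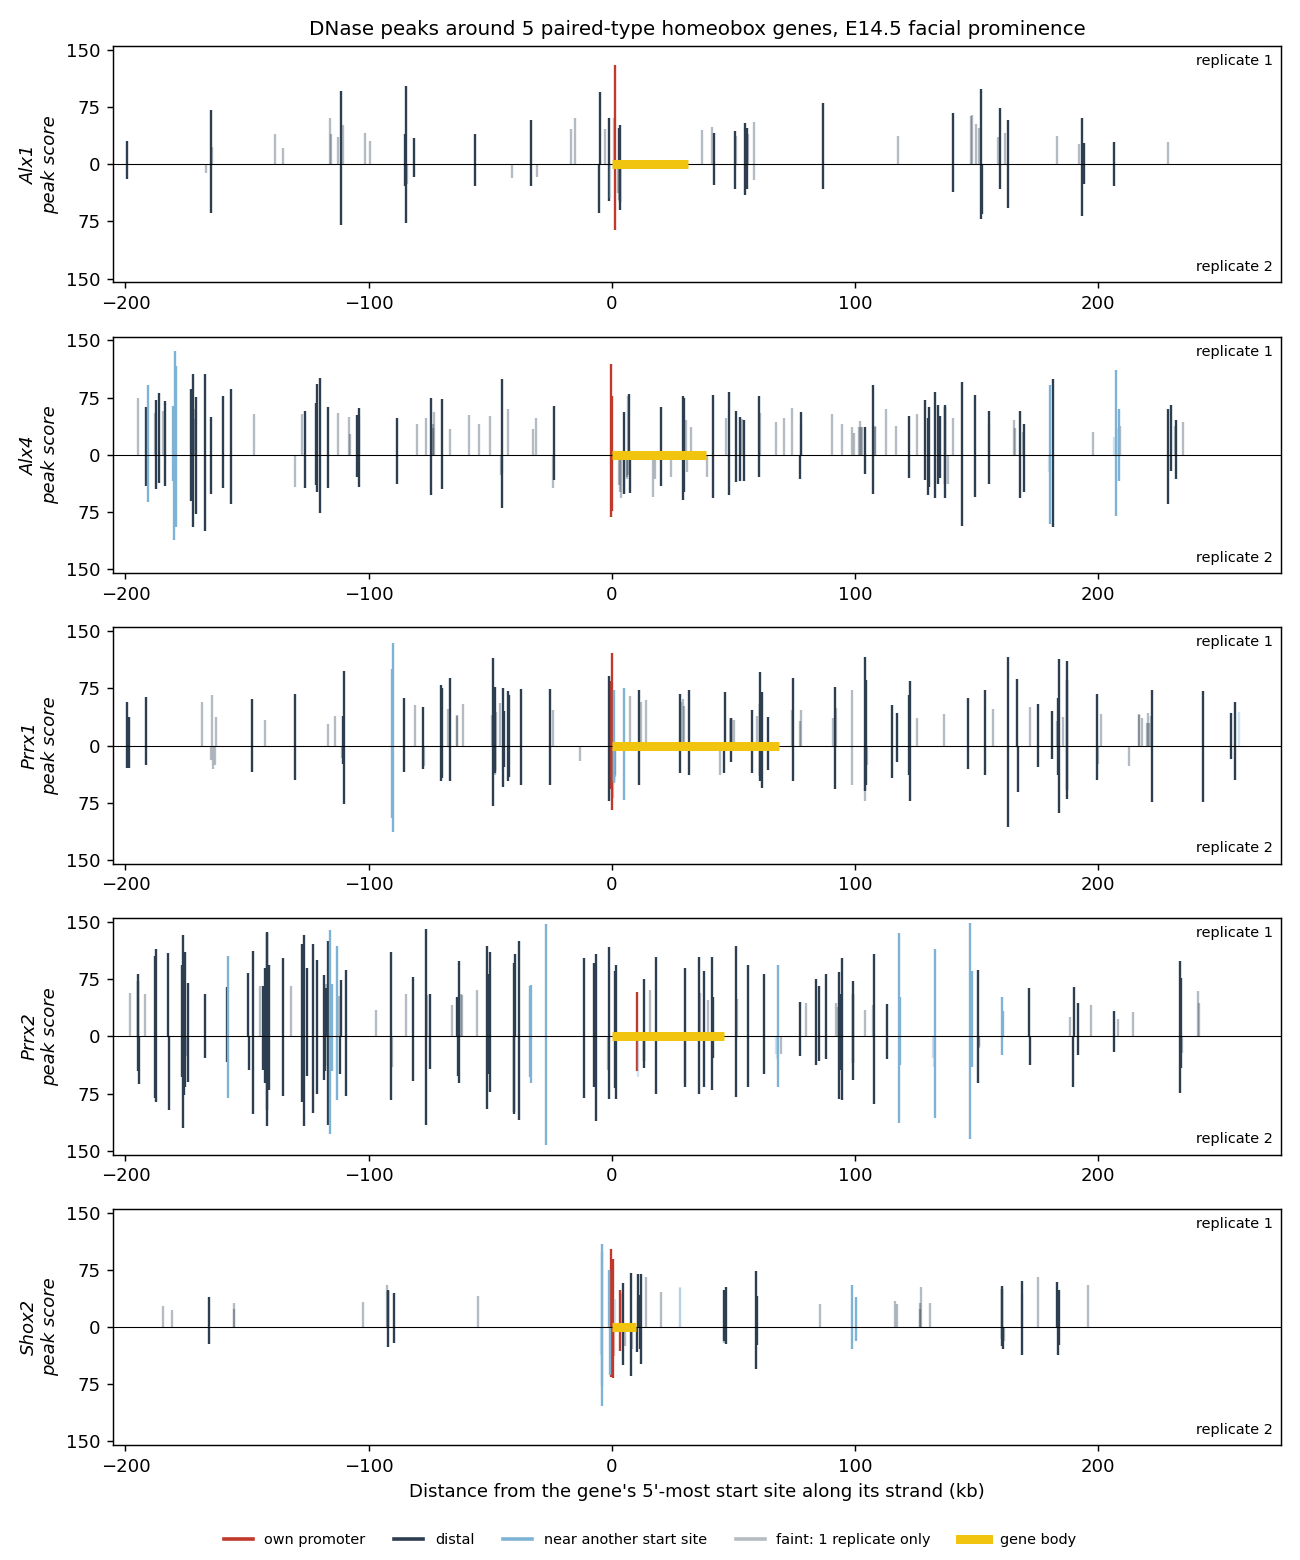
Distal, promoter and other peaks around each of the 5 genes (1 panel per gene), by distance in kb from the most 5′ start site along the gene's strand (x axis); bars give the authors' peak score, upward for replicate 1 and downward for replicate 2, and faint bars mark peaks found in 1 replicate only. The Prrx2 panel is filled most densely upstream of the gene, and the Shox2 panel is nearly empty upstream, where 3 of its 17 shared distal sites lie.

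The sites were arranged differently around each gene. Upstream of the gene, within its body and downstream of it lay 48, 9 and 20 sites for Prrx2, 23, 5 and 26 for Alx4, 21, 10 and 23 for Prrx1, 10, 2 and 12 for Alx1, and 3, 2 and 12 for Shox2. Most Prrx2 sites were thus upstream, and most Shox2 sites downstream. The longest stretch without a shared distal site was 100.4 kb in the Shox2 window (chr3:66821546-66921935), downstream of the gene, and 37.1 kb in the Prrx2 window. Even so, the Shox2 body itself was densely covered: hotspots took 20.9% of it in replicate 1 and 22.8% in replicate 2. The same share of the whole 410.0 kb Shox2 window was 3.25% and 2.07%, against 3.18% and 2.19% of all main chromosomes. Hotspots covered 9.68% and 8.04% of the Prrx2 window, 7.42% and 4.74% of that of Alx4, 6.83% and 4.07% of that of Prrx1, and 3.15% and 1.86% of that of Alx1. All 226 shared distal sites lay in hotspots of both replicates, as did 100% of the 140271 in the genome.

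Most sites around the densest genes lay nearest to the start site of another gene. The nearest protein-coding start was that of the gene itself for 21 of 24 Alx1 sites and 14 of 17 Shox2 sites, but for 21 of 54 Prrx1, 13 of 54 Alx4 and 8 of 77 Prrx2 sites. The Prrx2 window holds 9 other protein-coding genes, of which 8 had an accessible promoter, and 24 of its sites were nearest to 1700001O22Rik. The Alx4 window holds 5 others, including Ext2, a heparan sulfate polymerase gene, to whose start 16 of the sites were nearest. Prrx1 has 2 neighbours, Gorab with an accessible promoter and Mroh9 without. Alx1 and Shox2 have 1 each, Lrriq1 and Rsrc1. Counting only sites nearest to the gene, per length of the sequence nearest to it, gave 19.3 per 100 kb for Prrx2 (8 sites in 41.5 kb), 13.2 for Prrx1 (21 in 159.0 kb), 9.92 for Alx4 (13 in 131.0 kb), 9.25 for Shox2 (32 in 345.8 kb) and 6.02 for Alx1 (21 in 348.8 kb). By this measure Shox2 moved from percentile 27.3 to 75.02, Alx4 from 93.3 to 77.7 and Alx1 from 39.7 to 57.3. The Shox2 value counts 32 sites, of which 14 lie in the window used above and the rest beyond it.

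Site strength followed the order of site density except that Prrx1 and Alx4 changed places. The mean rank of a site is the percentile of its score in each replicate's list, averaged over both. Its median was 86.2 for Prrx2, 67.2 for Prrx1, 66.4 for Alx4, 59.0 for Alx1 and 38.9 for Shox2, beside 57.7 for all shared distal sites. Mean ranks of 90 or more were reached by 30 of the 77 Prrx2 sites, 5 of 54 Alx4 sites, 5 of 54 Prrx1 sites, 2 of 24 Alx1 sites and 0 of 17 Shox2 sites, beside 5.99% of all. The hotspot value stood at its ceiling in both replicates for 44 Prrx2 sites, 18 Prrx1, 15 Alx4, 7 Alx1 and 2 Shox2 sites, beside 27.7% of all shared distal sites. The dense Prrx2 neighbourhood was also the one with the strongest sites, whereas the Prrx2 promoter peak was the weakest of the 5.

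**Figure D4:**
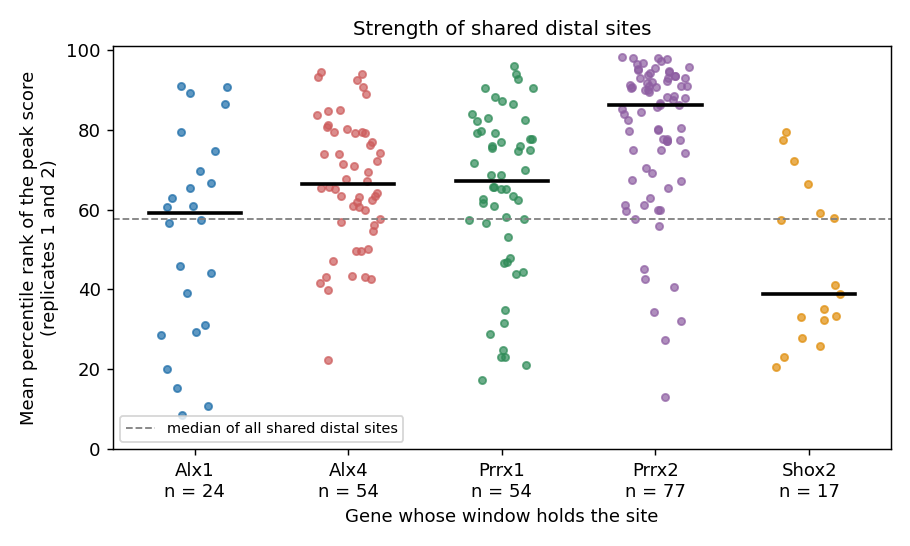
Mean percentile rank of the peak score over replicates 1 and 2 (y axis) for each shared distal site, 1 point per site, by the gene whose window holds it (x axis, with the number of sites); black bars are medians and the dashed line is the median of all shared distal sites, 57.7. The Prrx2 points crowd near the top, with a median of 86.2, and the Shox2 points lie mostly under the dashed line, with a median of 38.9.

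The strongest distal sites were as follows. The Prrx2 site of highest mean rank, chr2:30758516-30758685, scored 140 and 116 and lay 76.4 kb upstream in intergenic sequence, nearest to 1700001O22Rik. The next scored 133 and 120 and lay 176.4 kb upstream within the non-coding genes 9330198N18Rik and Gm14486, overlapping an exon of the latter. For Prrx1 the first was chr1:163150576-163150745, with scores of 116 and 107, 163.0 kb beyond the start on the downstream side. For Alx4 it was chr2:93475156-93475305, with 106 and 100, 167.2 kb upstream and nearest to Cd82. For Alx1 it was chr10:103114776-103114925, with 103 and 77, in an intron of Lrriq1 84.6 kb upstream. The strongest Shox2 site, chr3:66973736-66973905, with 71 and 64, lay in the gene's own coding sequence. The top site of each gene except Shox2 was thus far outside the gene body. The strongest Prrx2 site, the strongest Alx1 site and the Shox2 coding site are printed, on the strand of the gene, to show how unlike in base composition they are: GC content is 60.6%, 47.3% and 74.7%.
Prrx2 strongest distal site, chr2:30758516-30758685, plus strand: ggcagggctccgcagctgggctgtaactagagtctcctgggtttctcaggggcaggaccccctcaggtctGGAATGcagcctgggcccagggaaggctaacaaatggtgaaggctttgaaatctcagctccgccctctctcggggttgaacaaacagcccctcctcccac
Alx1 strongest distal site, chr10:103114776-103114925, minus strand: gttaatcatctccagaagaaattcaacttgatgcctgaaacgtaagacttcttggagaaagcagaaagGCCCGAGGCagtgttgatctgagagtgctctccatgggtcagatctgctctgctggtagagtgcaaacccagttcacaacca
Shox2 strongest distal site, chr3:66973736-66973905, minus strand: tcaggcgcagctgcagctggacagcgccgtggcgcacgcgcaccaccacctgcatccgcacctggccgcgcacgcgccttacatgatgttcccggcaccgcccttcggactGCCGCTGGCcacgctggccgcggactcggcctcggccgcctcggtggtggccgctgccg
The capitals mark a TEAD-type GGAATG in the first and TFAP2-type GCCNNNGGC matches in the other two.

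Base composition differed between the windows. The median GC content of the central 150 bp was 58.0% for Prrx2 sites, 54.3% for Alx4, 44.3% for Prrx1, 44.0% for Shox2 and 42.0% for Alx1, beside 48.7% for all shared distal sites. Repeats masked over 50% of 4 of the 226 sites, beside 2.54% of all.

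Closest upstream of the paralogs Prrx1 and Prrx2, a similar arrangement of letters appeared. The first shared distal site upstream of Prrx1, chr1:163314816-163315005, lay 1.20 kb from its start with scores of 91 and 73. The first upstream of Prrx2, chr2:30833716-30833885, lay 1.17 kb from its 5′ start with scores of 117 and 82. Their mean ranks were 88.2 and 93.4. Both are printed on the strand of the gene because their sequences resemble each other; capitals mark TAATTA, the E-box CATCTG and, in Prrx2, a TFAP2-type match.
Prrx1 nearest upstream distal site, chr1:163314816-163315005, minus strand: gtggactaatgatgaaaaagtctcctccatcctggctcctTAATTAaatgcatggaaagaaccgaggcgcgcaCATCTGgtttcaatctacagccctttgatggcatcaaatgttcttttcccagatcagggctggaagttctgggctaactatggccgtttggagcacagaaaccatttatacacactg
Prrx2 nearest upstream distal site, chr2:30833716-30833885, plus strand: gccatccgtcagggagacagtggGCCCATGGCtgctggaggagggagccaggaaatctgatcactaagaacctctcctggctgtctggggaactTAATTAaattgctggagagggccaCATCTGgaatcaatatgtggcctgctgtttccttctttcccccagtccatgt
In each, TAATTA stands before the E-box, at positions 41 and 95 counted from 1 at the 5′ end, and the E-box begins at positions 74 and 119. The E-box continues into CATCTGGTTTCAAT at Prrx1 and CATCTGGAATCAAT at Prrx2, with 27 and 18 bases between it and TAATTA. A local alignment of both sites had 37 identical bases in 50 columns (74%), with 2 mismatches and 11 gap columns, and a score of 31. The other 9 pairs among the nearest upstream sites of the 5 genes scored 15 to 18. The alignments were not among the planned results, and no test of their scores was made. The pattern CATCTGGNNTCAAT was read off these sites after they were seen. On either strand of the central 150 bp it occurred in 32 of 140270 shared distal sites (0.0228%). Together with TAATTA it occurred in 2 (0.00143%), which are these same sites. Being read off them, the exact pattern had to occur there, and near copies were not counted. In the Alx4 palindrome site printed below the E-box runs on as CATCTGgaatccaat, and in the distant Prrx1 site as CATCTGtttccaat.

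TAATTA was found in 6 of the 226 sites (2.65%, exact interval 0.980% to 5.69%), beside 4.18% of all shared distal sites. Of these 6 sites, 3 were around Prrx1, 2 around Alx4 and 1 around Prrx2. Motifs were searched on both strands of the central 150 bp, and a base could belong to more than one motif. The Twist-type E-box CAGATG, a form bound by basic helix-loop-helix factors of mesenchyme, was in 46 sites (20.4%, 15.3% to 26.2%), beside 18.7% of all. Both shares were near the background. CAGATG and TAATTA occurred together in 4 sites (1.77%, 0.484% to 4.47%), beside 0.754% of all. Of these 4 sites, 2 were around Prrx1, 1 around Alx4 and 1 around Prrx2. The Prrx2 site and 1 of the Prrx1 sites are the upstream sites above. The palindrome of TAAT and ATTA with 3 bases between them, on which paired-type proteins can bind as pairs, was in 1 site, around Alx4, beside 0.239% of all. With 2 bases between them it was in 0, beside 0.159%. A palindrome site and a pair of sites with both motifs are printed for their combinations of homeodomain and E-box letters, which are in capitals.
Alx4 palindrome site, chr2:93553936-93554165, plus strand: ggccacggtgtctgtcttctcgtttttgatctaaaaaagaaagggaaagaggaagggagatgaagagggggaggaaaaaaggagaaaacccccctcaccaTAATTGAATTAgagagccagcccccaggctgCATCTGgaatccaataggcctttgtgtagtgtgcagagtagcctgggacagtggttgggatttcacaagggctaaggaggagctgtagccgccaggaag
Alx4 site with TAATTA and CAGATG, chr2:93525536-93525685, plus strand: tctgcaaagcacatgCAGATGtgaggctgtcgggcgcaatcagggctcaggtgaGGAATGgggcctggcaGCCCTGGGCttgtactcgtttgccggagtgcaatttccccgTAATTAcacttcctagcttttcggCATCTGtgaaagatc
Prrx1 distant site with TAATTA and CAGATG, chr1:163129616-163129785, minus strand: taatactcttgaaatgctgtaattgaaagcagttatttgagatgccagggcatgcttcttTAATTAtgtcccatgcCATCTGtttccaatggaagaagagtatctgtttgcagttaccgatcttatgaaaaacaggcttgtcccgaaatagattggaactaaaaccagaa
In the first of these, the palindrome is followed by an E-box at position 132. The distant Prrx1 site, 184.0 kb from the start, was the second strongest of that gene, with scores of 113 and 89. The other Alx4 site also holds TEAD-type and TFAP2-type matches in capitals.

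Among the other motifs, GCCNNNGGC (TFAP2, factors of neural crest and surface ectoderm) was in 24 of the 226 sites (10.6%, 6.92% to 15.4%), beside 5.65% of all. Of these, 12 were around Prrx2 and 8 around Alx4, the windows of highest GC content, and 1 around Prrx1. The part of base composition in this was not tested. TGANTCA (AP-1) was in 19 sites (8.41%, 5.14% to 12.8%), beside 6.58%, with 11 of them around Prrx2. TGTGGTT (RUNX, factors of bone formation) was in 19, beside 5.49%, and GGAATG (TEAD) in 22, beside 12.6%. CATATG was in 12, beside 3.72%, 7 of them around Prrx1 and 0 around Prrx2. AACAAAG (SOX) was in 6, beside 4.39%. TCCC and GGGA with 2 bases between (EBF) were in 1, beside 1.31%, and the CTCF core (CCA, 2 bases, AGGGGGC) in 1, around Alx4, beside 1.39%. TTGGC and GCCAA with 5 bases between (NFI) were in 0, beside 0.26%. A CpG was in 199, beside 84.4%. The counts per gene are small, and a match is no evidence of binding.

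The other paired-class homeobox genes were set beside the 5 by a list. Of 31 such genes, 22 had an accessible promoter (71.0%), close to the 67.5% of all protein-coding genes. Their median density was 7.66 shared distal sites per 100 kb. Among the densest were Uncx with 14.6 and Rax, an eye-field factor, with 11.4. Prrx2 exceeded all 31. Among the sparsest were Esx1 and Duxbl1, with 1.72 and 4.13, and Shox2 lay just above them. Of 59 transcription factor genes listed for facial mesenchyme, 55 had an accessible promoter (93.2%) and the median density was 9.86. Among the densest were Six4 with 15.2 and Ebf2 with 13.9, and the sparsest were Snai2 with 1.49, Tbx22 with 2.14 and Tfap2b with 2.33. The lists were chosen with earlier results known, and no test was made on them.

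By distal peak counts and best promoter scores in both replicates, combined as a distance over 4 values, genes of these lists most like each of the 5 were sought among 88 candidates. They were Pax6, Tfap2a and Dlx5 for Alx1 and Foxp2, Dlx3 and Meis2 for Alx4. They were Foxp2, Meis2 and Gli3 for Prrx1, Pax7, Uncx and Rax for Prrx2, and Osr1 and Hand2 for Shox2. The smallest distance was 0.288, between Prrx1 and Foxp2, which had 87 and 64 distal peaks and promoter scores of 112 and 83. The peak counts were not divided by window length, so this likeness is not one of density. Per 100 kb, Foxp2 had 5.21 shared distal sites (percentile 36.3), beside 11.5 for Prrx1 and 12.3 for Alx4. This likeness rests on 2 replicates.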

How the data were processed

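DNase-seq was made from embryonic facial prominence, 2 biological replicates of 1 group. The authors deposited peak and hotspot lists per replicate in mm10, not pooled per the labels; for aligner, caller and depth the sources used here hold no statement, so the precision that depth gives is unknown. The authors' peak lists hold 150 bp regions with a score, whose normalization is not stated. The authors' hotspot lists hold a −log10 q-value, per their broad peak format, from 1.30 to 100.

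Regions outside the autosomes, X and Y were dropped and repeated coordinates kept once. Start sites came from the basic GENCODE M21 annotation and sequence from RefSeq GRCm38.p6, read with samtools 1.23.1. Overlaps, ranks and 14 motif searches were computed in Python 3.11.15 with pandas 2.3.3 and numpy 2.4.6, and exact intervals with scipy 1.17.1. The code was tested on simulated data. Alternatives changed the overlap, score minimum, region type, replicates, list length, window, assignment, promoter width and annotation.

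The genes, lists, motifs and rules were chosen with earlier results of these data known. Named were every promoter peak, the strongest and the nearest shared distal sites, the 2 strongest distal peaks seen in 1 replicate per gene, neighbours in the windows, the 3 densest and 3 sparsest genes of each of 2 lists, and the 3 most similar genes (distance over log2 of 1 plus distal peak count and best promoter score divided by 50, per replicate). Some genes that this rule names are not reported here. Drgx was listed as Prrxl1. No protein sequence was used here.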

Additional observations from a re-analysis of the deposited data

How the results depend on the processing

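With 1 group and 2 replicates no condition can be tested, and depth, cell mixture and library cannot be told apart. All 5 promoters also passed with an overlap of 75 bp, with peaks above the median score and with lists of equal length. They passed with hotspots too, but all shared distal sites lay in hotspots of both replicates, so that pass adds little. The other 4 alternatives only loosen the rule, so a gene that passed could not fail them. Among all values recomputed, 43 moved beyond a set limit and 134 did not. For densities and percentiles the limit was the standard deviation of the 2 single-replicate values. It was a fixed fold change for the promoter count and the counting interval for the rest. For the percentile of Prrx2 the limit was narrow, with single-replicate values of 99.002 and 99.1, so that even 99.6 counted as moved. In each alternative, Prrx2, Alx4 and Prrx1 stood above Alx1 and Shox2 in percentile of distal density. The order of Alx1 and Shox2 turned with 500 kb flanks and with sites given to the nearest gene. Prrx1 was under percentile 90 with 500 kb flanks (76.4), an overlap of 75 bp (87.8), nearest-gene assignment (87.9) and hotspots (88.6).

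The percentile of distal density with 100 kb flanks was 47.9 for Alx1, 87.7 for Alx4, 94.5 for Prrx1, 97.7 for Prrx2 and 40.5 for Shox2. With 500 kb flanks it was 30.1 for Alx1, 76.4 for Prrx1, 99.6 for Prrx2 and 43.4 for Shox2. With sites given to the nearest gene it was 57.3 for Alx1, 77.7 for Alx4, 87.9 for Prrx1, 96.1 for Prrx2 and 75.02 for Shox2, whose density became 9.25 per 100 kb. With hotspots it was 95.9 for Alx4 and 98.9 for Prrx2, whose density became 13.9, and 86.2% of the distal hotspots of replicate 2 were shared. With only peaks above the median score of each list it was 99.9 for Prrx2 and 20.2 for Shox2. There, the density of Shox2 was 0.976, its peak ratio 3.5, the shared share of replicate 1 was 62.3%, CpG was in 92.0% of sites, SOX in 0.667% and the spaced palindrome in 0. With lists of equal length the percentile of Shox2 was 32.2, its peak ratio 1.14 and the shared share of replicate 1 was 65.6%. With an overlap of 75 bp the percentile of Prrx2 was 99.6 and the shared share of replicate 2 was 74.3%.

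Without replicate 1 or replicate 2, densities ranged from 7.18 to 11.8 for Alx1, 16.2 to 24.4 for Alx4, 14.1 to 20.5 for Prrx1, 19.05 to 23.8 for Prrx2 and 5.37 to 8.78 for Shox2. Percentiles ranged from 43.6 to 54.9, 96.6 to 99.3, 91.6 to 95.8, 99.002 to 99.1 and 29.5 to 34.5 in the same order. Alx1 was thus above the median gene without replicate 2. The share of sites with a CpG ranged from 80.8% to 86.9%. No paired analysis was possible because there is a single group, so no group shares a replicate number with another.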
